A study of Mus musculus with 12 samples.

Results

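The miRNAs described here are the 3p arms that miRBase numbers mmu-miR-6896 to mmu-miR-7093, measured in blood extracellular vesicles (bEVs) of mouse serum. A member is any row of the count table with a number in that range and the ending 3p, and 200 of 1995 features qualified, without use of any measured value. The table holds 1885 miRNAs and 110 piRNAs, and each member has a 5p arm of the same number in it. Small RNAs were sequenced from 6 Rag1-/- mice given T cells and 6 Rag1-/- mice given medium, 1 library per mouse, and the groups are called T cell recipients and medium recipients.

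Both groups share the Rag1-/- deletion, which leaves a mouse without T and B cells of its own. T cell recipients were given 10000000 cells each, purified from wild-type spleen with an isolation kit and injected intravenously. Per the study's methods the animals were males on a C57BL/6 background, used at 8 to 12 weeks of age unless stated otherwise. Serum bEVs were enriched by differential ultracentrifugation, and they mix vesicles of many cell types. In such material fewer cells of a type, fewer vesicles and less RNA per cell cannot be told apart. All 16 miRNAs of the fixed lists for erythroid, platelet and myeloid, T lymphocyte and liver RNA were detected in all 12 libraries, so that miRNAs of the T lymphocyte list were present in medium recipients too, and other blood cells also express them.

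Most miRNAs are cut from a long hairpin transcript by Drosha and then by Dicer. A mirtron skips Drosha: the splicing machinery releases a short intron, which is debranched and folds into a hairpin that Dicer can cut. In a tailed mirtron only 1 end of the hairpin is set by splicing, and the tail at the other end is trimmed away. Because an intron ends in a run of pyrimidines followed by AG at the 3′ splice site (the acceptor), the 3p arm of a mirtron with that end carries the same letters. The seed, bases 2 to 8 of the miRNA, is the stretch that pairs with target mRNAs.

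Mature sequences were taken from RefSeq (GRCm38.p6, the same coordinates as mm10), which held an entry for 176 of the members. The 10 most abundant members are shown first because low counts limit their values least, 5′ to 3′ with the seed in capitals.
miR-6946-3p: uUUCUUCUcuucccuuucag
miR-7070-3p: cAGGCUCUccuucccuccag
miR-6986-3p: gUUUUCACcuuccucccag
miR-7080-3p: cAGGCUCAccccuccguucccu
miR-6991-3p: gCAGCCCUuuguucuucuccag
miR-6926-3p: uCACCAUCccugucuccauag
miR-7036a-3p: cCGUCCUCauccgcuccucccag
miR-7025-3p: cAGCACAAcuccagcucaccag
miR-7091-3p: aGUGGCUUcugucgucucuag
miR-6945-3p: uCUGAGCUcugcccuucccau

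Of these 10, 8 end in ag, and miR-6946-3p is 90.00% pyrimidine. Over the 176 members with a sequence, 138 (78.4%) ended in AG, of which 120 ended in CAG and 16 in UAG. The same ending was found in 6.82% of the 176 placed 5p arms of these numbers and in 11.2% of the 499 other 3p arms of the table. The median share of pyrimidines was 72.1% in the members, 31.8% in their 5p arms and 54.5% in the other 3p arms. Members were 18 to 25 bases long, with a median of 22.

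All 176 lay inside an annotated intron of a protein-coding gene (GENCODE M21) on the strand of that gene. The last base of 136 members (77.3%) was the last base of the intron, and 164 (93.2%) ended within 2 bases of it. Among the other 3p arms 4.21% ended exactly there and 7.01% within 2 bases. The introns ranged in length over 66 to 36269 bases with a median of 494, and 36 of them were no longer than 100 bases. In 10 members the 5p arm also began within 2 bases of the 5′ splice site (the donor), so that the hairpin filled an intron of 73 to 96 bases, the arrangement of a conventional mirtron. In 154 members the acceptor end alone was scored as met, in 4 the donor end alone and in 8 neither. For 9 members no distance of the 5p arm from a donor was available. They were scored as not meeting the donor end, although it was not examined in them. The positions and sequences of the reference entries thus matched the label mirtron-rich, and none was taken from the reads of these libraries. No processing by splicing was measured.

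**Figure D1:**
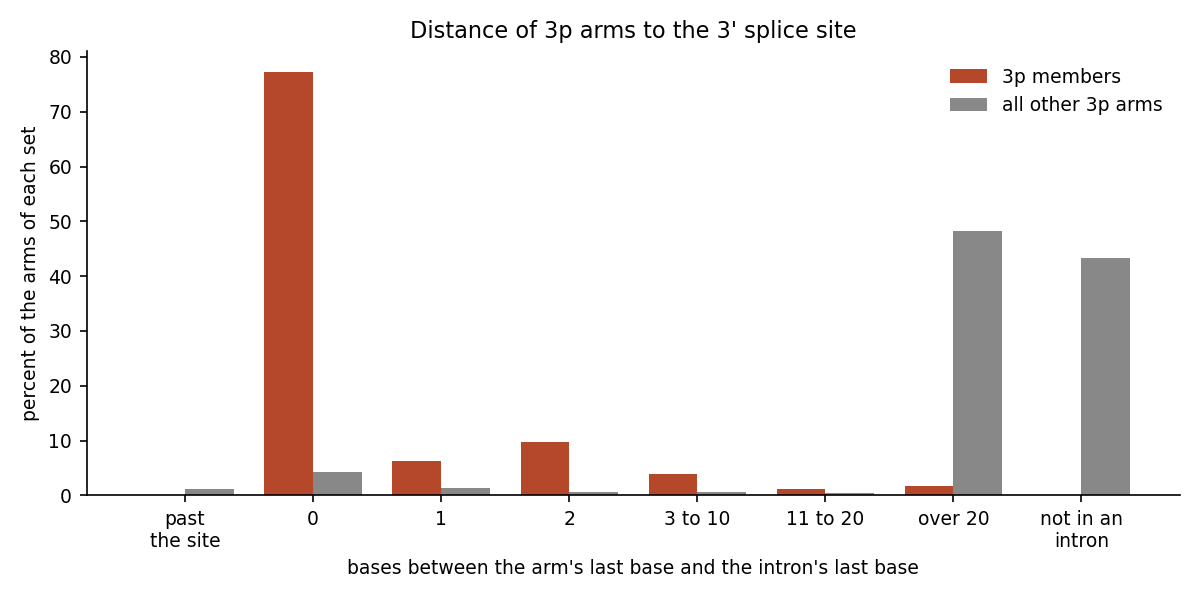
Bars give the percent of 3p arms (vertical axis) at each distance in bases between the arm's last base and the last base of the annotated intron that holds it, for 176 members and 499 other 3p arms. The bar at 0 holds 77.3% of the members and 4.21% of the other 3p arms.

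miR-7070-3p and miR-7091-3p are the conventional mirtrons among the 10 most abundant members. miR-7070-3p lies at chr8:85062152-85062171 on the plus strand and fills, with its 5p arm, an intron of 86 bases in Fbxw9, which encodes an F-box protein of ubiquitin ligases. miR-7091-3p with its 5p arm likewise fills an intron of 79 bases in Dnase1l1, a gene of the DNase I family. miR-6946-3p ends at the acceptor of an intron of 683 bases in Sec24c, which encodes a cargo adaptor of COPII transport vesicles (chr14:20690684-20690703, plus strand). miR-6986-3p ends an intron of 116 bases in Rce1, the protease of prenylated CAAX proteins. miR-7036a-3p ends one of 151 bases in Srrt, whose product links the cap-binding complex to miRNA processing. miR-6926-3p ends one of 97 bases in Sgsm2, a regulator of Rab GTPases. miR-7080-3p lies in an intron of 67 bases in the copine gene Cpne7, where its 5p arm begins at the donor and the 3p arm stops 4 bases before the end of the intron. miR-7025-3p is the exception among the 10, since it lies 745 bases before the acceptor of its intron in Pdgfra, a receptor of platelet-derived growth factor.

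Seeds were almost all different. The 176 sequences held 168 seeds, and 161 members had a seed that no other member had. No 2 members had the same sequence. CACCCUG was the seed shared by most members, in the 3 sequences printed here to show that they differ beyond it.
miR-7018-3p: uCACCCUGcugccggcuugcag
miR-7023-3p: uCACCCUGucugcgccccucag
miR-7068-3p: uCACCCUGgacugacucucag
Their hosts are Hspg2 (the basement membrane proteoglycan perlecan), Pik3cd (the leukocyte PI3-kinase delta) and Cherp (an endoplasmic reticulum protein of calcium release). miR-7068-3p averaged 179 ± 161 CPM in T cell recipients, against 266 ± 153 CPM in medium recipients, and miR-7023-3p averaged 219 ± 142 CPM in T cell recipients, against 172 ± 74.5 CPM in medium recipients (SD, n = 6 each). CPM here is counts per 1000000 counts of a library, after TMM scaling. The third, miR-7018-3p, was detected in 3 of 6 libraries with T cells and in 4 of 6 with medium. None of the 3 passed the test described further on. Of the 176, 13 shared a seed with a feature outside the members. miR-6932-3p and miR-7039-3p carried CUGUUCU, the seed of miR-26a-2-3p and miR-26b-3p, and miR-7070-3p carried AGGCUCU, the seed of miR-344g-3p.

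The members were many and shallow. They held 47060 of 1089887 pooled counts. All 200 were seen in at least 1 library, and 69 were seen in all 12 (34.5%), against 154 of their 200 5p arms (77%) and 60.4% of all features. Without T cell replicate 2 and medium replicate 3, which list no counts from 1 to 9, 105 members were seen in all 10 other libraries. The median member had a mean of 13.5 counts per library, compared with 27.8 for the 5p arms and 22.3 for all features. Mean counts were under 10 for 63 members, 10 to 50 for 126 and at least 50 for 11. Of all member values, 484 of 2400 (20.2%) were 0, and 132 of these zeros were in that pair of libraries.

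Library totals were 48997 to 130106 counts, and in the 10 libraries with counts below 10 a count of 0 allows a level of up to 25.9 to 61.2 counts per 1000000 of the raw total (3 counts per library). A 0 in T cell replicate 2 or medium replicate 3 gives no such limit. Intervals and limits cover counting error only.

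With T cells the libraries detected 113, 164.5 and 180 members (lowest, median and highest), and with medium 147, 163.5 and 181. T cell replicate 2 was the lowest of all 12 libraries, and the other 11 overlapped between the groups. The difference of the means was −6.33 members, and 0.80 members without that library and medium replicate 3. The 7 members detected in 3 or fewer libraries were miR-6900-3p, miR-6972-3p, miR-6990-3p, miR-7015-3p, miR-7043-3p, miR-7059-3p and miR-7089-3p (named for their low detection, after the values were seen).

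The summed share of the members in library counts averaged lower with T cells, by less than the spread among T cell libraries. It was 2.52, 4.09 and 5.17% (lowest, median and highest) with T cells and 4.03, 4.92 and 5.39% with medium. Means were 4.02% ± 0.97 in T cell recipients, against 4.79% ± 0.53 in medium recipients (SD, n = 6 each). The lowest share, in T cell replicate 2, had a 95% Wilson interval of 2.44 to 2.61%. That library lists no counts from 1 to 9, and the interval does not allow for any member counts left out below 10. Of the T cell libraries 3 fell below the lowest medium library and 0 lay above the highest. The difference was −0.77 percentage points, and −0.47 without T cell replicate 2. No p-value is given for this sum.

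The 10 most abundant features of the table, none of them a member, took a larger part of the counts in T cell recipients. They held 27.4% ± 7.9 of the counts with T cells and 17.8% ± 5.4 with medium. When these 10 features were left out of the total, the member share was 5.48% ± 0.86 with T cells and 5.82% ± 0.40 with medium. The difference was then −0.34 percentage points.

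**Figure D2:**
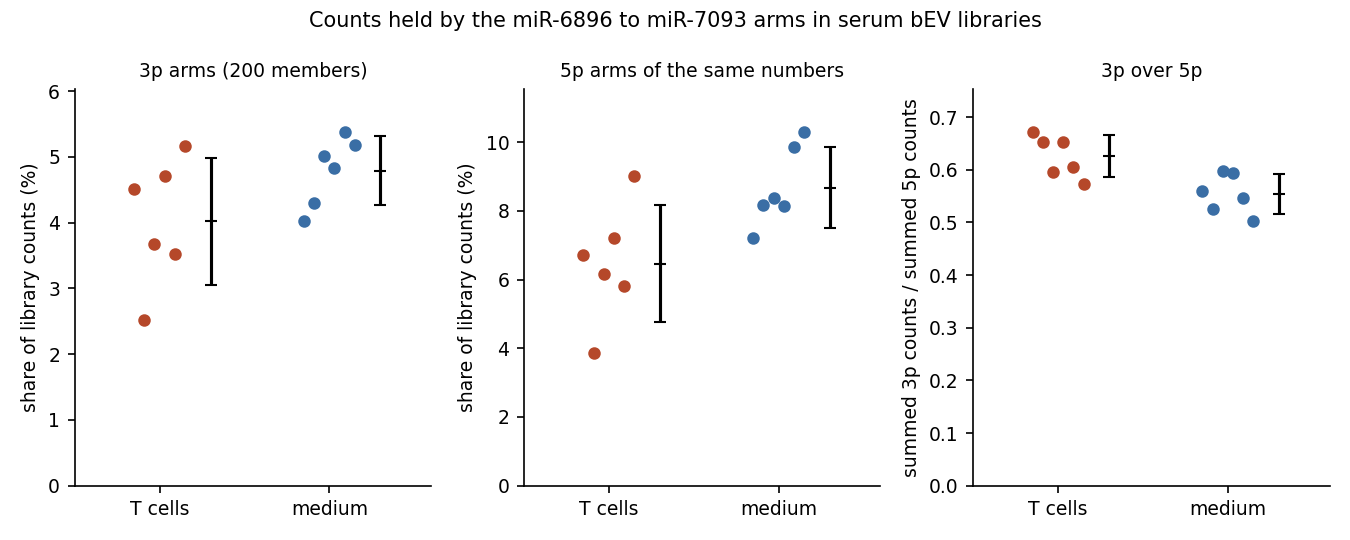
Points are libraries of the T cells and medium groups, and the bars beside them are the mean and SD (n = 6 each). The vertical axes give the percent of library counts in the 3p arms and in the 5p arms, and the ratio of the summed counts; the 3p share averaged 4.02% with T cells and 4.79% with medium, and the ratio 0.625 and 0.554.

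A pair of members stood above the others, although most of the members' counts lay outside it. miR-6946-3p, the highest, ranked 31 among all features by mean share, and miR-7070-3p ranked 40. The next, miR-6986-3p, ranked 104, and the median member ranked 1525.5 of 1995. Of the members' summed mean share over the libraries, the leading pair held 12.9% and the 10 leading members 25.6%. In each of the 12 libraries the same pair held the first and second places among the members. miR-6946-3p was first in 4 of 6 libraries with T cells and in 6 of 6 with medium, and miR-7070-3p was first in the remaining T cell libraries.

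miR-6946-3p was at 2911, 3525 and 4320 CPM (lowest, median and highest) in T cell recipients, against 1727, 2804 and 3472 CPM in medium recipients. The groups overlapped, with 4 T cell libraries above the highest medium library and 3 medium libraries below the lowest T cell library. The log2 fold change was 0.35 (standard error 0.24, edgeR adjusted p = 0.99), and it was −0.01 under scaling by total counts.

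miR-7070-3p was at 2134, 3114 and 4965 CPM in T cell recipients, against 1333, 1880 and 2457 CPM in medium recipients. T cell replicates 1 and 3 were the highest at 4965 and 4833 CPM, and 5 of 6 T cell libraries were above every medium library. T cell replicate 6 was the exception and lay among the medium libraries. The mean was 3449 ± 1191 CPM in T cell recipients, against 1899 ± 512 CPM in medium recipients (SD, n = 6 each).

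The third member, miR-6986-3p, averaged 982 ± 201 CPM in T cell recipients, against 1004 ± 233 CPM in medium recipients, so the levels differed by less than the spread of either group (log2 fold change −0.03, standard error 0.23). miR-7080-3p averaged 799 ± 186 CPM in T cell recipients, against 722 ± 173 CPM in medium recipients. miR-7036a-3p was the steadiest of these, at 683 ± 121 CPM in T cell recipients, against 630 ± 102 CPM in medium recipients. In each of these 3 the groups overlapped. The arm from Pdgfra, miR-7025-3p, averaged 625 ± 324 CPM in T cell recipients, against 587 ± 126 CPM in medium recipients. miR-6991-3p averaged 780 ± 374 CPM in T cell recipients, against 644 ± 185 CPM in medium recipients, and its T cell libraries ran on both sides of the medium range. miR-7091-3p averaged 639 ± 142 CPM in T cell recipients, against 567 ± 207 CPM in medium recipients. Below miR-6986-3p neighbours among the 10 most abundant members differed in mean CPM over all 12 libraries by less than the SD of either in each group. The 10 highest members of the T cell group and of the medium group had 8 in common. Over all 12 libraries the coefficient of variation had a median of 28.7% in the 11 members with a mean of 50 counts or more, and of 55.4% in the other 131 tested members.

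**Figure D3:**
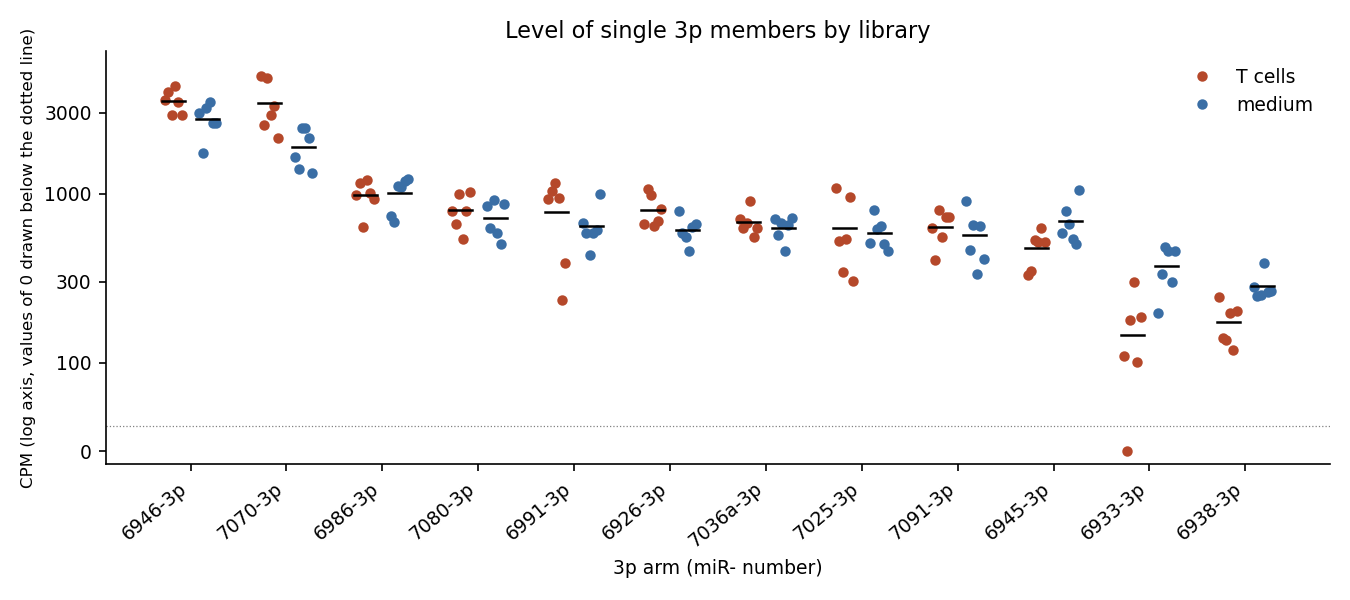
Points give CPM (log axis) of single 3p members in each library, T cells at the left and medium at the right of each pair, with the mean as a black line, for the 10 most abundant members, miR-6933-3p and miR-6938-3p. 5 of 6 T cell points of miR-7070-3p are above all medium points, and all 6 of miR-6938-3p are below them.

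For most hairpins the 5p arm was the more abundant one, and the leading members were exceptions. The 3p arm had the higher mean count in 50 of 200 hairpins (25%) and the 5p arm in 150. The median ratio of 3p to 5p counts was 0.468. The 3p arm was higher in all 12 libraries for 9 hairpins and the 5p arm for 60. The arms differ in sequence, and whether they were captured equally in the libraries was not tested.

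At the 3p end of this range, miR-6946 had a mean of 283.75 3p counts and 16.0 5p counts, a ratio of 17.7. miR-7070 had 233 and 15.7 counts, a ratio of 14.9, and miR-6945 had 50.5 and 6.67 counts, a ratio of 7.58. In these 3 hairpins the 3p arm was higher in all 12 libraries. At the other end, the 5p arm of miR-7089 held 43 to 113 counts in every library while its 3p arm was detected in 2 libraries, both with T cells, at no more than 10 counts. The 3p arms of miR-6900 and miR-6990 were detected in 1 T cell library and 1 medium library each, against mean 5p counts of 57.7 and 43.0. miR-6941, from the Notch ligand gene Jag2, had the most abundant 5p arm of all, with a mean of 206 counts, and a 3p mean of 17.0.

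**Figure D4:**
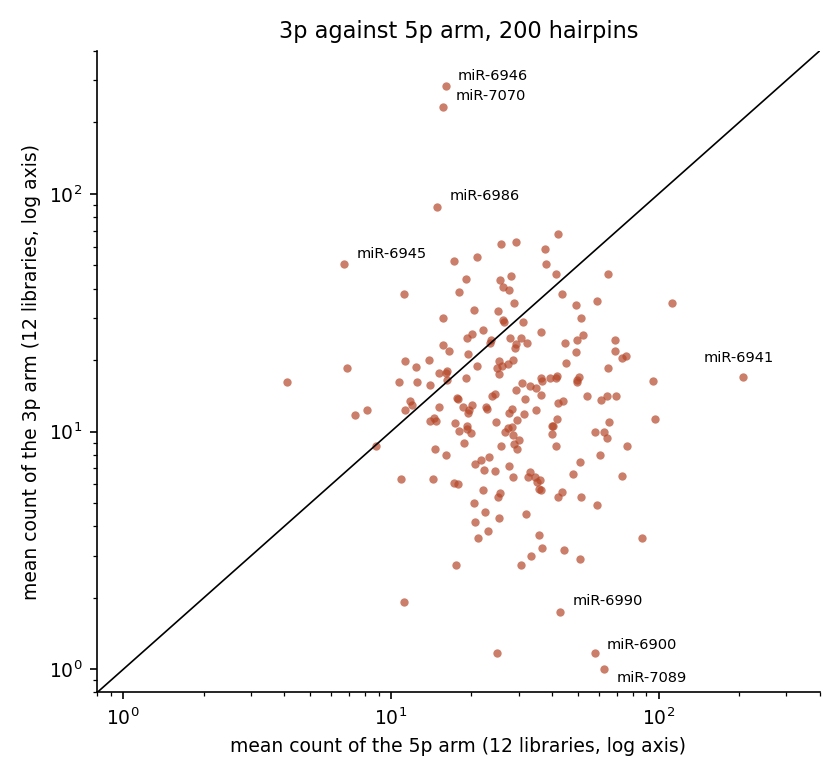
Each point is 1 of 200 hairpins, with the mean count of its 5p arm on the horizontal and of its 3p arm on the vertical axis (both log axes, 12 libraries); the line marks equal counts. miR-6946 and miR-7070 stand highest above the line, while 150 hairpins lie below it.

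Relative to the 5p arms the summed counts of the members stood higher with T cells, although the groups overlapped. The ratio of summed 3p to summed 5p counts was 0.573, 0.629 and 0.672 (lowest, median and highest) with T cells and 0.503, 0.553 and 0.598 with medium. Of the T cell libraries 4 were above the highest medium library. The 5p arms together held 6.47% ± 1.70 of counts in T cell recipients, against 8.68% ± 1.17 in medium recipients (SD, n = 6 each), a larger difference in percentage points than that of the 3p arms. miR-6946-3p and miR-7070-3p made up 15.5% ± 2.4 of member counts with T cells and 10.9% ± 1.9 with medium, and 5 T cell libraries were above the highest medium one. The ratio without that pair of members was not calculated. Without T cell replicate 2 and medium replicate 3 the ratio averaged 0.620 in T cell recipients, against 0.545 in medium recipients. The ratio rests on sums over members and was given no p-value.

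Whether single members differed between mice given T cells and mice given medium was tested with edgeR's quasi-likelihood test over all features that passed the filter on low counts. Of the 200 members 142 passed and 58 did not, and 1720 of 1995 features passed in all. The filter asks for a minimum level in as many libraries as 1 group holds, whichever group they belong to. A member could therefore pass through 1 group alone, and the 142 do not stand for all 200. edgeR called 0 of the 142 members at an adjusted p under 0.05, beside 0 of 1720 features (0%), and the lowest adjusted p of a member was 0.358. At an unadjusted p under 0.05, 1 member was higher with T cells and 2 were lower, where 5.06% of all features were higher and 1.92% lower. limma voom also called 0 members, beside 0 of 1720 features. DESeq2 run on all features gave an adjusted p to 24 members and called 1, beside 7.13% of 561 features called higher and 0.713% called lower. The members called were 2.11% of those tested by the unadjusted edgeR p and 4.17% of those with a DESeq2 p, so they were not more frequent than in the whole table.

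The member called was miR-7070-3p, with values given above. DESeq2 gave a log2 fold change of 0.84 (adjusted p = 0.0363), and edgeR 0.86 with a standard error of 0.28 (unadjusted p = 0.00676, adjusted p = 0.358). The DESeq2 call was lost in 8 of 12 fits that each left out 1 library. Those libraries were replicates 1, 3, 4 and 5 of the T cell group and replicates 1, 2, 5 and 6 of the medium group (adjusted p = 0.0589 to 0.0973). The 4 fits that kept it left out T cell replicate 2, T cell replicate 6, medium replicate 3 and medium replicate 4 (adjusted p = 0.00493 to 0.0385). With the 2 libraries that lack low counts both left out, the adjusted p was 0.0523. The fold change stayed between 0.70 and 0.94 on the log2 scale in those 12 fits. Over all 37 alternatives of method, scaling, filter and libraries, miR-7070-3p had a log2 fold change of 0.49 to 1.01. Its 5p arm had a log2 fold change of −0.35 (edgeR adjusted p = 0.99) at a mean of 15.7 counts.

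After TMM scaling the members as a group were centred near 0, as were all tested features. The log2 fold change was above 0 for 77 and below 0 for 65 of the 142, a share above 0 of 54.2% where all features had 45.2%. The median was 0.06 for the members and −0.05 for all tested features, with quartiles of −0.32 and 0.30 for the members. Under scaling by total counts the medians were −0.25 for the members and −0.38 for all features, and 30 members were above 0 and 112 below. By position, the median was 0.17 for the 8 tested members with both ends at splice sites and 0.06 for the 106 with the acceptor end only, but −0.02 for the 4 with the donor end only and −0.21 for the 7 with neither end, and it was 0.06 for the 17 without a sequence entry. The values ranged over −1.45 (miR-7061-3p, edgeR adjusted p = 0.812) to 1.18 (miR-7073-3p, adjusted p = 0.99), and only 4 were beyond 1 in size.

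**Figure D5:**
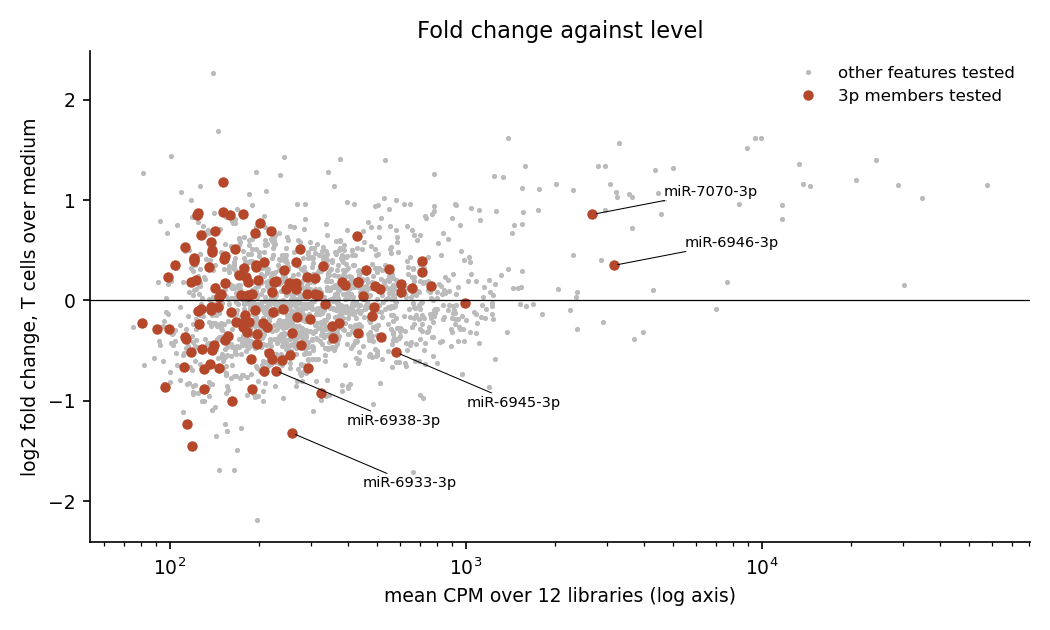
Each point is a tested feature, with mean CPM over 12 libraries on the horizontal (log axis) and the edgeR log2 fold change, T cells over medium, on the vertical axis; 142 members are coloured. The members lie on both sides of 0 with a median of 0.06, and miR-7070-3p stands at 0.86 among the abundant features.

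Among members with lower values with T cells, miR-6933-3p and miR-6938-3p had the lowest unadjusted edgeR p, though not the largest fold changes, and are shown for that reason.
miR-6933-3p: aGGUGUUUccucugccguca
miR-6938-3p: uCAUCUGGggcugucuccuuag
miR-6933-3p lies in Pgs1, which makes a precursor of cardiolipin, and ends 7 bases before the acceptor. It was at 0, 144 and 299 CPM (lowest, median and highest) in T cell recipients, against 198, 394 and 486 CPM in medium recipients. The value of 0 is T cell replicate 2, and 5 of 6 T cell libraries were below every medium library while replicate 4 was not. The log2 fold change was −1.32 (standard error 0.49, edgeR unadjusted p = 0.0153, adjusted p = 0.404). Without T cell replicate 4 DESeq2 called it (log2 fold change −1.70, adjusted p = 0.0104), whereas DESeq2 on all 12 libraries gave it no adjusted p. The fit without T cell replicate 4 called 27 of 983 features.

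miR-6938-3p ends an intron of Mlh3, a gene of mismatch repair and meiotic recombination. It was at 118, 168 and 244 CPM in T cell recipients, against 247, 264 and 390 CPM in medium recipients. It was the only member whose groups did not overlap, and 0.116% of all tested features were lower in this way and 0.174% higher. The gap was narrow, with 244 CPM in T cell replicate 1 and 247 CPM in medium replicate 2. The log2 fold change was −0.70 (standard error 0.32, edgeR unadjusted p = 0.0398, adjusted p = 0.673), at a mean of 20.8 counts.

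The other members with the lowest p in each direction did not pass the test either. miR-6945-3p, from the PDZ and LIM domain gene Pdlim7, averaged 478 ± 115 CPM in T cell recipients, against 687 ± 205 CPM in medium recipients (log2 fold change −0.52, edgeR adjusted p = 0.716). miR-7050-3p, from Fxyd5, a regulator of the sodium pump, averaged 224 ± 125 CPM in T cell recipients, against 424 ± 114 CPM in medium recipients (−0.92, adjusted p = 0.783). miR-6941-3p averaged 133 ± 27.3 CPM in T cell recipients, against 245 ± 113 CPM in medium recipients (−0.88, adjusted p = 0.753). In the T cell group all 6 libraries of miR-6941-3p were between 103 and 178 CPM, below 5 of 6 medium libraries and above the lowest one.

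On the higher side, miR-6926-3p averaged 805 ± 176 CPM in T cell recipients, against 612 ± 113 CPM in medium recipients (log2 fold change 0.40, edgeR adjusted p = 0.882). miR-7062-3p, from the metalloprotease gene Adam8, averaged 227 ± 121 CPM in T cell recipients, against 126 ± 66.6 CPM in medium recipients (0.86, adjusted p = 0.918). Both had libraries of either group among the other's. miR-7028-3p, from the trichoplein gene Tchp, averaged 274 ± 165 CPM in T cell recipients, against 167 ± 45.0 CPM in medium recipients (0.69, adjusted p = 0.918). Its T cell replicate 3 stood alone at 577 CPM, and without that library the log2 fold change was 0.34 (edgeR adjusted p = 0.993). miR-6948-3p, from Acin1, a gene of chromatin condensation in apoptosis, averaged 207 ± 97.2 CPM in T cell recipients, against 112 ± 32.3 CPM in medium recipients (0.85, adjusted p = 0.929). Each of these 4 overlapped between the groups.

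Members hosted by the lymphotoxin genes Lta and Ltb were looked at for their hosts, a choice made after the annotation was read. They are not a full set of members in leukocyte genes, since miR-7023-3p, described above, lies in Pik3cd. miR-6974-3p fills with its 5p arm an intron of 83 bases in Lta, the lymphotoxin alpha gene, and was detected in 3 of 6 libraries with T cells and in 4 of 6 with medium. Its level was 0, 16.9 and 160 CPM (lowest, median and highest) in T cell recipients, against 0, 62.3 and 139 CPM in medium recipients, and it did not pass the filter. miR-6973a-3p, from an intron of the lymphotoxin beta gene Ltb, was detected in all 12 libraries. It averaged 477 ± 121 CPM in T cell recipients, against 503 ± 117 CPM in medium recipients (log2 fold change −0.07, standard error 0.24, edgeR adjusted p = 0.99). For miR-6973a-3p the groups differed by less than their spread, and miR-6974-3p was too sparse for a comparison at this depth.

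Mirtrons outside this number range were set beside the members for scale. miR-877-3p averaged 365 ± 166 CPM in T cell recipients, against 334 ± 121 CPM in medium recipients, and miR-702-3p averaged 415 ± 206 CPM in T cell recipients, against 427 ± 112 CPM in medium recipients. miR-1224-3p was low, at 81.8 ± 94.7 CPM in T cell recipients, against 131 ± 107 CPM in medium recipients. None of the 3 was called by edgeR (adjusted p = 0.99 each). miR-6946-3p and miR-7070-3p were higher than all 3 in every library, but they are the most abundant members. The median member had a mean of 13.5 counts per library. Median counts over the libraries were 28 for miR-877-3p, 34.5 for miR-702-3p and 9.5 for miR-1224-3p.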

How the data were processed

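The authors sequenced the libraries (Qiagen miRNA kit, 75-base single-end reads), called bases with bcl2fastq 2.18.0.12 (submitters' processing notes), identified UMIs and aligned reads to miRBase version 21 and mm10 in Qiagen GeneGlobe. The deposited counts are raw whole numbers per feature, and whether they are reads or UMIs is not given in the sources used here. Totals were 48997 to 130106 counts per library, and most members had under 50 counts, so counting error was large.

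Features were filtered with filterByExpr by group, scaled by TMM and tested with edgeR 4.0.16 (quasi-likelihood, R 4.3.3), with p-values adjusted by Benjamini and Hochberg over the whole tested table and called under 0.05. DESeq2 1.42.0, the tool the study names, and limma 3.58.1 voom were alternatives. DESeq2 on all features, and its fits with libraries left out, were chosen after seeing the data. Other alternatives were each library left out, the scaling, the filter, a replicate block and a table of miRNAs only. Methods were tested on simulated data. Shares have 95% Wilson intervals (scipy 1.17.1).

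Sequences are from RefSeq and introns from GENCODE M21, with a tolerance of 2 bases. The members and lists were chosen with earlier results of these data known. Named members were the 10 most abundant, those past a threshold in edgeR or DESeq2, the 5 with the lowest edgeR p in each direction, those whose groups did not overlap, the 2 most abundant of any seed shared by 3 or more, and the 3 highest and 3 lowest 3p to 5p ratios with at least 20 mean counts over both arms. Any other member in the text was picked with its values in view.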

Additional observations from a re-analysis of the deposited data

Results flagged for a closer look

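In 50 groups of 6 libraries examined, 5 held a value far from the other 5. Chance gives about 1 in 20 for values without ties, a rate that does not apply to 4 of these groups, in which 5 libraries were at 0 and any count would stand apart. In mice given T cells miR-6900-3p was at 113 CPM in replicate 4 and 0 in the others, and in mice given medium it was at 27.0 CPM in replicate 1 and 0 in the others. miR-6990-3p was at 220 CPM in T cell replicate 1 and at 35.8 CPM in medium replicate 5, and 0 in all other libraries. These 4 values are of members detected in 2 libraries each, and both medium values are 3 counts. miR-6938-3p was at 390 CPM in medium replicate 4, while the other medium libraries were at 247 to 279 CPM.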

How the results depend on the processing

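The count of members called was 0 with edgeR, where 0 of 1720 features were called. It was 1 with DESeq2 with its filters, on the kept features (32 of 583 features called) or on all features (44 of 561). It was 0 with DESeq2 without its filters (16 of 1720). It was also 0 with voom and the other settings on 12 libraries, and these called 0 features. With DESeq2 on all features it was 0 to 1 over fits that left out 1 library, and these fits called 15 to 68 features. The 1 was miR-6933-3p without T cell replicate 4 (27 of 983 features called) and miR-7070-3p otherwise. The median log2 fold change of tested members was −0.25 with total counts, where that of all tested features was −0.38. For the members it was −0.03 to 0.12 with edgeR and TMM when 1 library was left out. Of 444 alternative fold changes of 12 named members 8 changed sign, all at values near 0. miR-6946-3p had −0.01 with total counts, and miR-6986-3p had −0.13 to 0.07 when 1 library was left out, above 0 in 7 such fits. The share difference was −1.002 to −0.472 percentage points when 1 library was left out, −0.83 of miRNA counts and −0.43 without T cell replicate 2 and medium replicate 3. Replicate numbers are not stated to pair mice: same-number correlations were −0.137 to 0.09, and the replicate block called 0 members (lowest adjusted p 0.221). Members under 10 mean counts (63 of 200) are limited by depth.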
